A study of Mus musculus with 15 samples.

Results

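The respiratory chain genes of mouse stomach were followed from normal tissue to tumors of 4 places, as 2 groups set by the genome that encodes them. Members were chosen by gene symbol and a minimum count: nuclear genes of complexes I to V (Nduf, Sdh, Uqcr, Cox4 to Cox8 and Atp5 symbols) and the protein-coding genes of the mitochondrial genome, with at least 10 counts in at least 3 libraries. Of 36144 genes in the count table, 94 were members, 81 nuclear and 13 mitochondrially encoded. The rule matched 101 symbols after 7 pseudogenes with -ps in the symbol were left out, and 7 of these were too low (Cox6a2, Cox6c2, Cox7b2, Cox8b, Cox8c, Ndufa11b and Ndufs6b). Pseudogenes without -ps stayed in: the member Ndufb4c is annotated as a processed pseudogene, as are the low Cox6c2, Ndufa11b and Ndufs6b. By complex the nuclear members numbered 36 in I, 4 in II, 8 in III, 16 in IV and 17 in V, and the mitochondrial ones 7, 0, 1, 3 and 2. Ndufa4 and Ndufa4l2 were placed in complex IV, where the Ndufa4 protein sits.

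Bulk RNA of 15 samples was sequenced, 3 of normal tissue and 3 of tumors at each of 4 places. The places were the corpus, the antrum and the boundaries of the lesser and greater curvatures of the cardia. The cardia places are named lesser curvature and greater curvature here. All 5 groups, normals included, carry 1 genotype label: Cre-ERT under Pou2f3, the regulator of tuft cells, with Rb1fl/fl, Trp53fl/fl and the Cre-dependent LSL-MycT58A, on C57BL/6 at 7-8 weeks of age. Tamoxifen, which activates this Cre, was injected at 50 mg/kg on a single day, and the labelled time is 5 weeks. The labels call replicates biological without saying whether they came from separate animals, so p-values measure the spread between these samples, and the stomach region of the normal tissue is not given. A sample is named here by place and replicate number, as normal 1.

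The respiratory chain sits in the inner mitochondrial membrane. Complexes I and II pass electrons from NADH and succinate to ubiquinone, complex III hands them to cytochrome c, complex IV gives them to oxygen, and complex V (ATP synthase) uses the resulting proton gradient to make ATP. Complex II is encoded entirely in the nucleus, and the other complexes are built from products of both genomes. The mitochondrial genes are read as long polycistronic transcripts, most from the heavy-strand promoter and mt-Nd6 from the other strand, and are then cut into single RNAs. In the stomach the acid-secreting parietal cell is packed with mitochondria.

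Library totals ran from 7957165 to 21564972 counts, and the 13 mitochondrial genes took 4.13% to 9.37% of a library, with 95% Wilson intervals at most 0.0283 percentage points wide that cover counting error only. Some markers of other cells set the groups apart. A call here is an adjusted p under 0.05 for tumors against normals in the edgeR fit described below. That fit called 16.2% of all genes higher and 15.7% lower, and DESeq2 called 22.1% higher. Summed counts scaled to library size (CPM) for 10 parietal markers were 5643 to 10891 in normals and 90.3 to 8323 in tumors, with 7 of 10 called lower. For 10 smooth muscle markers they were 4633 to 6519 and 194 to 1194, with 10 of 10 called lower, and for 4 chief cell markers 60913 to 135840 and 10.4 to 80759, with 3 of 4 called lower. All 8 proliferation markers were called higher (242 to 448 against 707 to 1974 CPM). Squamous markers reached 6125 CPM in normal 2 and at most 12.9 in the other normals, and 10.2 to 1616 in tumors (median 26.7). Of these, 5 of 7 were called lower, but the calls leaned on normal 2. Without it Lor, Krtdap and Sbsn lost the call and the log2 change of Krt4 turned to 3.81. Immune markers (2 of 3 tested called higher) had 57.3 to 63.6 and 66.0 to 184 CPM, and adipocyte markers (1 of 3 called lower) 93.0 to 128 and 22.9 to 81.1. Stomach identity markers, such as the gastrokines and mucins, were at 101509 to 108795 CPM in normals and 132 to 89475 in tumors (2 of 6 called lower). Epithelial markers had 3798 to 11848 and 158 to 10604 CPM (0 of 5 called) and neuroendocrine markers 248 to 1162 and 216 to 5392 (0 of 7 called by edgeR, 3 higher by DESeq2). In bulk RNA fewer cells of a type and less RNA per cell cannot be told apart.

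Both groups of respiratory chain transcripts were lower in tumors relative to the median gene, and the mitochondrial genes were lower by more. With edgeR, TMM library scaling (which balances libraries on their middle genes) and a Benjamini-Hochberg adjusted p under 0.05 as the call, 31 of 81 nuclear members (38.3%) were called lower in the 12 tumors than in the 3 normals, against 15.7% of all 16224 genes tested. Of the 13 mitochondrial genes 8 (61.5%) were called lower. No member was called higher by edgeR or by DESeq2, against 16.2% and 22.1% of all genes, and at an unadjusted p under 0.05 the count was 1 nuclear and 0 mitochondrial. The median log2 fold change was -0.31 over nuclear members, -0.84 over mitochondrial ones and -0.04 over all genes. In 10 nuclear and 4 mitochondrial members every tumor lay below every normal in CPM, as in 6.65% of all genes tested.

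**Figure D1:**
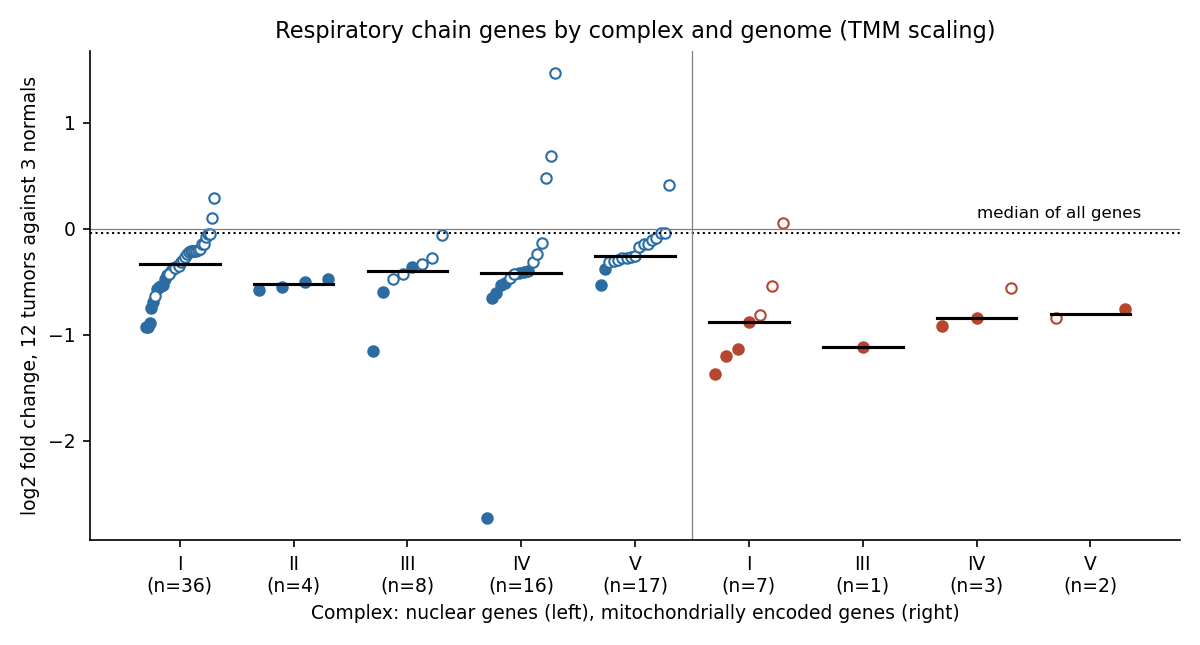
Log2 fold change of each member (12 tumors against 3 normals, edgeR with TMM scaling), by complex, nuclear genes in blue and mitochondrial genes in red; filled points have an adjusted p under 0.05, bars are medians and the dotted line is the median of all genes (-0.04). Complex II is filled throughout, 2 of 17 nuclear genes of complex V are filled, and the lowest point is Cox7a1 at -2.73; with library totals or TPM in place of TMM, values shift up and most nuclear signs flip.

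The sign of the nuclear change depended on the scaling. The gap between the genomes could hardly do so, because a scaling shifts all genes of a library alike. In the deposited TPM table as it stands (limma on log2(TPM + 1)) the median of all genes was 0.43, the nuclear median was 0.24, and 63 of 81 nuclear members changed sign. There 7 nuclear members were called higher and 1 lower, against 37.3% and 3.58% of all genes. With library totals alone in edgeR the median of all genes was 0.40, the nuclear median was 0.13, and 3 nuclear members were called higher and 5 lower, against 31.3% and 6.95%. Relative to the median gene the nuclear median was -0.27 with TMM, -0.27 with library totals and -0.19 in the TPM table. The mitochondrial median on the same scale was -0.80, -0.79 and -0.71. The mitochondrial minus the nuclear median was -0.53 with TMM and with library totals, and -0.52 in the TPM table. In the TMM fit it was -0.33 without normal 1 and -0.66 without normal 2, so its size depended on the normals used. All fold changes below are from the TMM fit unless another scaling is named, and say where a gene stood relative to the middle of the transcriptome.

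**Figure D2:**
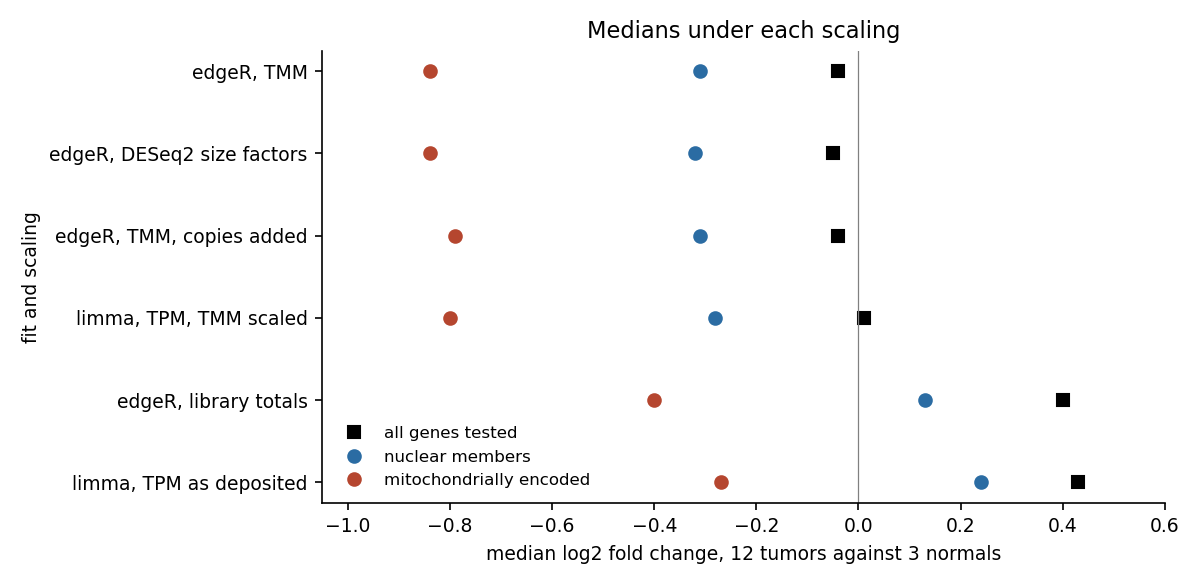
Median log2 fold change (tumors against normals) of all genes tested (black), nuclear members (blue) and mitochondrial members (red) under 6 fits. Nuclear medians lie above zero with library totals and unscaled TPM (0.13 and 0.24) and below it in the other rows, and in every row drawn the mitochondrial median is lowest and the median of all genes highest. A change of library scaling moves the medians of a row together, so their order is no separate test.

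The normals also decided how many members were called. Without normal 1 the counts were 15 nuclear and 1 mitochondrial, and without normal 2 the nuclear count was 14. Leaving out any other single library gave between 21 and 40 nuclear and between 7 and 10 mitochondrial calls. Of the 31 nuclear calls 11 were made whichever library was left out (Atp5h, Ndufa1, Ndufa3, Ndufa6, Ndufb10, Ndufb9, Ndufv3, Sdha, Sdhb, Sdhd and Uqcrh), and of the 8 mitochondrial calls 1, mt-Nd4.

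Among the mitochondrial genes of complex I, mt-Nd5 had 7021, 2405 and 3592 CPM in normals and 1248 to 2816 in tumors (median 1603), so that normal 2 fell inside the tumor range. It was called lower at -1.37 (SE 0.28, adjusted p = 0.00576), and without normal 1 it just missed the threshold (adjusted p = 0.0501). mt-Nd4, another core subunit of the proton-pumping arm, had 10380, 6025 and 5508 CPM in normals and 2195 to 5052 in tumors (median 3106). Its groups did not overlap, the fold change was -1.20 (SE 0.24, adjusted p = 0.00574), and it was the mitochondrial gene that was also called lower in the unscaled TPM table (-0.61, adjusted p = 0.0386). mt-Nd4l (-1.13) and mt-Nd2 (-0.88) were called lower, whereas mt-Nd1 (-0.54, adjusted p = 0.0946) and mt-Nd3 (-0.81, adjusted p = 0.0817) did not pass, and mt-Nd1 was at 0.04 in the TPM table. Complex III has mt-Cytb, the cytochrome b that carries electrons across the membrane, with 15273, 8253 and 7744 CPM in normals and 3467 to 6895 in tumors. Its fold change was -1.12 (SE 0.24, adjusted p = 0.00664), with all 12 tumors below the normals, and without normal 1 the adjusted p was 0.0522.

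In complex IV, mt-Co1, the catalytic subunit, had 37150, 21800 and 22945 CPM in normals and 10844 to 22278 in tumors, a fold change of -0.92 (SE 0.28, adjusted p = 0.0261). mt-Co3 was called lower with no overlap between groups (-0.84, adjusted p = 0.0158), while mt-Co2, which takes electrons from cytochrome c, ranged from 3993 to 8237 CPM in normals and from 2137 to 9891 in tumors and did not pass (-0.56, SE 0.46, adjusted p = 0.344). In complex V, mt-Atp8 was called lower with no overlap (-0.76, adjusted p = 0.0204), and mt-Atp6 just missed (-0.84, SE 0.30, adjusted p = 0.0503). Without normal 1 the calls of mt-Nd2, mt-Nd4l, mt-Co1, mt-Co3 and mt-Atp8 were also lost, at adjusted p of 0.0986, 0.0808, 0.149, 0.0853 and 0.128, and mt-Co1 was lost without normal 3 too (adjusted p = 0.0530). On the per-length scale of the TPM table, mt-Atp8 was the highest of the 13 (26985 ± 7089 TPM in normals, SD, n = 3; 23572 ± 5480 in tumors, n = 12) and mt-Nd6 the lowest.

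mt-Nd6, the member on the light strand (mitochondrial genome 13552 to 14070, GRCm38), had 13.2, 5.32 and 7.19 CPM in normals and 3.41 to 26.8 in tumors. Its fold change of 0.05 (SE 0.53, adjusted p = 0.951) leaves a wide interval, and the groups overlapped fully. mt-Nd5 (11742 to 13565) overlaps its end on the other strand, and the sources used here do not say whether counting used strand.

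**Figure D3:**
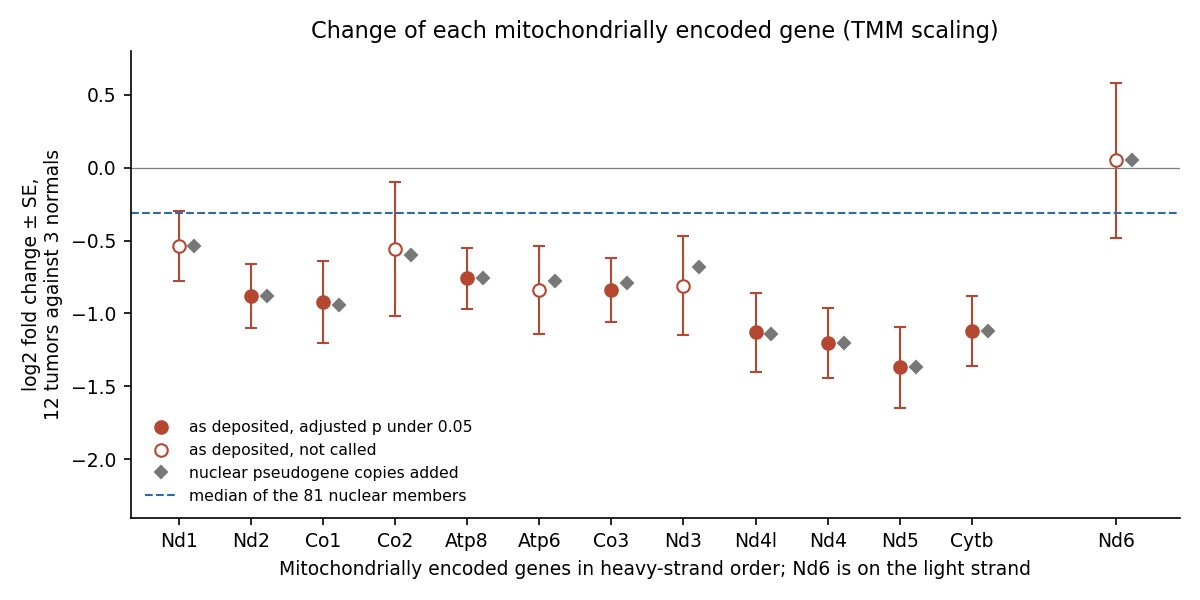
Log2 fold change ± SE of each mitochondrial gene (12 tumors against 3 normals, edgeR with TMM scaling), in heavy-strand order with mt-Nd6 apart; red points use the counts as deposited, grey diamonds add nuclear pseudogene copies, and the dashed line is the nuclear median (-0.31). The last 4 heavy-strand genes lie between -1.37 and -1.12 and the first 8 between -0.92 and -0.54; in the unscaled TPM table all values shift up and mt-Nd1 and mt-Nd6 are above zero.

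Along the heavy-strand transcript the last 4 genes (mt-Nd4l, mt-Nd4, mt-Nd5 and mt-Cytb, from 9877 to 15288) had a median fold change of -1.17 and the first 8 (mt-Nd1 to mt-Nd3, from 2751 to 9806) one of -0.82. This order was noticed after the values were seen. Across the 12 genes, which share each library and are not independent, Spearman's rho between position and fold change was -0.69, and -0.67 with the pseudogene copies described next. Per library, the counts of the last 4 were 32.4%, 27.0% and 26.2% of the first 8 in normals (copies added) and 13.4% to 29.2% in tumors, so the groups overlapped. Among samples numbered 2 the tumors held 25.6% to 28.4% beside 27.0% in normal 2, while among those numbered 1 and 3 all 4 tumors lay below the normal of that number.

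Near-identical nuclear entries drew counts beside the mitochondrial genes. The mouse nuclear genome holds a copy of a stretch of the mitochondrial genome, and 5 pseudogenes on the minus strand of chromosome 1 (24612775 to 24616197, GRCm38) match mt-Nd3, mt-Co3, mt-Atp6, mt-Co2 and part of mt-Co1 almost base for base. The aligned 681 bases of mt-Co2 and Gm28661, 783 of mt-Co3 and Gm28437 and 678 of mt-Atp6 and Gm10925 held 0 differences, so reads there cannot be assigned by sequence, and which RNA the counts of the copies came from was not tested. In mt-Co1 the 483 aligned bases held 1 difference, written here as A1066T (gene base, position from 1 at the first base of the mt-Co1 transcript, copy base). It is shown to make plain how little separates gene and copy, from position 1063 to 1102, 5′ to 3′, with the differing base in capitals, from the GENCODE M21 transcripts.
mt-Co1: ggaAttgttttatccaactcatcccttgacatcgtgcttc
Gm29216: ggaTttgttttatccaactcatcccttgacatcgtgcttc
These and 3 further copies held 2294931 counts, equal to 17.71% of the mitochondrial members' own counts and 10.2% to 28.5% by library. For mt-Nd3 the copy Gm28438 held 87569 counts beside 87049 under mt-Nd3 itself. With copies added to their genes, 10 of 13 mitochondrial genes were called lower, against 15.7% of all genes in that fit, with mt-Atp6 (-0.78, adjusted p = 0.0228) and mt-Nd3 (-0.68, adjusted p = 0.0413) joining. mt-Co2 remained outside the call (-0.60, adjusted p = 0.135).

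The 2 genomes were then compared within each library, where scaling cancels. The summed mitochondrial counts were 8.41, 4.80 and 5.70 times the summed nuclear counts in normals. The ratios were 4.83, 4.67 and 3.98 in antrum tumors, 5.12, 4.39 and 3.46 in greater curvature tumors, 5.12, 3.95 and 3.48 in lesser curvature tumors and 4.40, 3.76 and 3.55 in corpus tumors. Normal 1 stands far above all other libraries, normal 2 lies within the tumor range, and normal 3 lies above it. On the log2 scale the tumor groups lay 0.55 below the normals (-0.55, with a within-group SD of 0.28), -0.32 without normal 1 and -0.73 without normal 2. The sum is a score over chosen genes and carries no p. From the TPM table the difference was -0.47, and -0.53 with pseudogene copies added.

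The replicate number of the labels ran through these sums. The library numbered 1 had the highest mitochondrial sum and the highest ratio in all 5 groups, and the one numbered 3 had the lowest mitochondrial sum in all 5. The pseudogene copies took their largest share in the library numbered 3 in all 5 groups. What the number stands for is not given in the labels. Within each number, all 4 tumors had a lower mitochondrial sum, nuclear sum and ratio than the normal of that number. The mean log2 ratio of the tumors minus that normal was -0.79 for number 1, -0.20 for number 2 and -0.66 for number 3, so the gap between the genomes was smallest among the samples numbered 2.

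**Figure D4:**
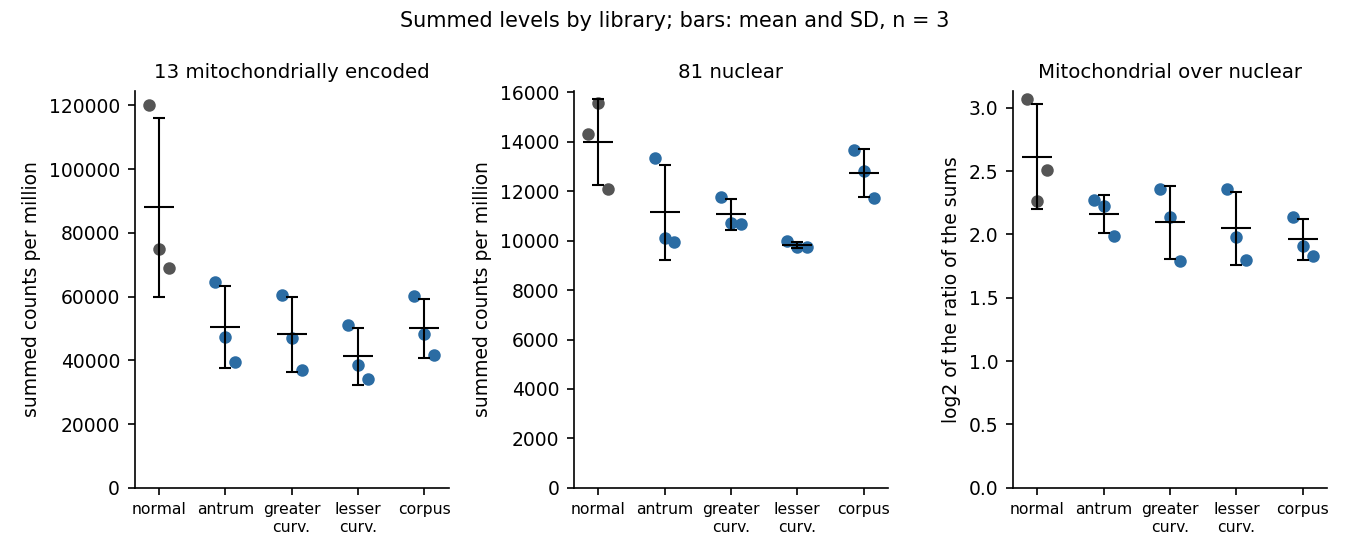
Summed CPM of the 13 mitochondrial and 81 nuclear members and the log2 of their ratio in each library (points, in the order of replicate numbers 1 to 3), with the mean and SD of each group (n = 3). Normals hold 68997 to 120264 mitochondrial CPM and tumors 33975 to 64555; nuclear sums overlap between groups (12099 to 15574 and 9760 to 13669), and the library numbered 1 is the highest of its group in the outer panels.

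In nuclear complex I, 14 of 36 members were called lower, with a median of -0.33. Ndufa6, an accessory subunit of the LYR family (chromosome 15, 82350140 to 82354322), had 161, 119 and 139 CPM in normals and 53.0 to 104 in tumors (median 76.1). The groups did not overlap, and the fold change was -0.93 (SE 0.12, adjusted p = 0.000913). With library totals it was still called lower (-0.49, adjusted p = 0.00633), and in the unscaled TPM table it was at -0.29 (adjusted p = 0.101). Ndufv3, a small subunit of the NADH-oxidizing arm (chromosome 17, 31520115 to 31531331), had 93.2, 74.1 and 70.5 CPM in normals and 27.2 to 64.6 in tumors, at -0.93 (SE 0.16, adjusted p = 0.00312). Ndufa1, an accessory subunit encoded on the X chromosome (37187588 to 37191163), had 77.1, 59.3 and 43.3 CPM in normals and 25.9 to 42.1 in tumors, at -0.89 (SE 0.15, adjusted p = 0.00315). All 12 tumors were below the normals in each of these, and Ndufb9 (-0.69, adjusted p = 0.00629) behaved likewise. Ndufv1, the core subunit that binds NADH, was called lower at -0.37 (adjusted p = 0.0319). It missed the threshold whichever normal was left out (adjusted p of 0.0889, 0.126 and 0.0662 for normals 1 to 3), and without antrum 2, antrum 3, corpus 2 or corpus 3. Ndufb4 had 3919 counts and its processed copy Ndufb4c, which is also counted as a member, 10481, so their levels cannot be separated with certainty. Ndufc2 (0.29, adjusted p = 0.485) and Ndufa12 (0.10, adjusted p = 0.735) had the highest fold changes of the complex.

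Complex II, succinate dehydrogenase, also belongs to the citric acid cycle, and it was the complex in which every nuclear member was called lower (median -0.53, and 0.06 with no call in unscaled TPM). Sdha, the flavoprotein that oxidizes succinate, had 288, 285 and 280 CPM in normals and 144 to 281 in tumors (median 194), with corpus 1 at 281 as the single tumor above a normal. Its fold change was -0.55 (SE 0.13, adjusted p = 0.00977), and 0.07 (adjusted p = 0.649) in the TPM table. Sdhb, the iron-sulfur subunit, had 184, 190 and 164 CPM in normals and 100 to 162 in tumors, without overlap, at -0.50 (SE 0.12, adjusted p = 0.00929), and 0.06 in the TPM table. Of the membrane anchors, Sdhd had 282, 272 and 276 CPM in normals and 158 to 260 in tumors, at -0.47 (SE 0.11, adjusted p = 0.00784), and 0.08 in the TPM table. Sdhc was at -0.58 (SE 0.16, adjusted p = 0.0192), with 10 of 12 tumors below all normals, and missed the threshold once normal 2 (adjusted p = 0.117) or normal 1 (adjusted p = 0.0549) was left out.

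The promoters of these genes are shown because their subunits form 1 enzyme and were lower together. NRF1, GABPA (an ETS factor), YY1 and the estrogen-related receptors are known regulators of nuclear mitochondrial genes, and 1 letter string was searched for each on both strands: the NRF1 core (marked in capitals in the windows), CCGGAAGT for ETS factors, AAGATGGC for YY1 and TCAAGGTCA for the receptors. No string contains another. RefSeq promoters (GRCm38.p6, 250 bases before to 50 after the start) were matched by symbol for 64 of the 81 nuclear members. The NRF1 string was in 17 of 64 (26.6%), against 5.19% of all 27025 promoters. The YY1 string was in 14.1% against 3.19%, the ETS string in 7.81% against 4.31% and the receptor string in 3.12% against 0.466%. Of the 26 matched members that were called lower 5 held the NRF1 string, and of the 38 others 12 did. The 100 bases before the gene starts of 3 subunits are given 5′ to 3′ on the gene's strand, from RefSeq, with matches to any of the 4 strings in capitals, at chr13:74350281-74350380 (Sdha, minus strand), chr4:140961103-140961202 (Sdhb, plus) and chr9:50603850-50603949 (Sdhd, minus).
Sdha: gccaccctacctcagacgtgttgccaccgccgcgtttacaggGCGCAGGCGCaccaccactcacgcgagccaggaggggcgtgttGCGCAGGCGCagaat
Sdhb: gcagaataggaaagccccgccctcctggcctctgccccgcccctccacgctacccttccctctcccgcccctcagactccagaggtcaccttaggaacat
Sdhd: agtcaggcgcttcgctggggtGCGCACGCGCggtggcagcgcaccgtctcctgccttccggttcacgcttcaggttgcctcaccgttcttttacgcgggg
The Sdha window held 2 NRF1 strings, the Sdhd window 1 and the Sdhb window none, while the 3 transcripts had fold changes between -0.55 and -0.47. A match is a string of letters and not a shown binding site.

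In complex III, 3 of 8 nuclear members were called lower (median -0.40). Uqcrb, the ubiquinone-binding protein (chromosome 13, 66900617 to 66905378), had 235, 279 and 205 CPM in normals and 46.1 to 206 in tumors (median 115), and corpus 1 at 206 was the tumor that reached the normals. It had the second largest drop of the called nuclear members, -1.15 (SE 0.30, adjusted p = 0.0142), which missed the threshold once normal 2 was left out (adjusted p = 0.0701). With library totals it was at -0.74 (adjusted p = 0.0344). Uqcrh, the hinge protein beside cytochrome c1, had 264, 264 and 212 CPM in normals and 111 to 214 in tumors, at -0.60 (SE 0.12, adjusted p = 0.00513). The Rieske iron-sulfur protein Uqcrfs1 was at -0.36 (adjusted p = 0.0392, and 0.20 in the TPM table), and the core protein Uqcrc2 at -0.43 (adjusted p = 0.0529).

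In complex IV, 8 of 16 were called lower (median -0.41). Most of these are common subunits: Cox6a1 (-0.65, adjusted p = 0.0112), Cox6b1 (-0.61, adjusted p = 0.00792), Cox6c (-0.51, adjusted p = 0.0135, with all 12 tumors below the normals), Cox8a (-0.42, adjusted p = 0.0350) and Cox5b (-0.40), with Cox7b just under the threshold (-0.41). Cox7a2l was called lower at -0.53 (adjusted p = 0.0173). Cox4i1, the common form of the regulatory subunit IV, did not pass (-0.43, adjusted p = 0.0623), nor did Cox7a2 (-0.31, adjusted p = 0.184) or Ndufa4 (-0.24, adjusted p = 0.293). Each of these 8 calls, Cox7a1 included, was lost without normal 1 or normal 2. Complex V had the smallest share of calls, with 2 of 17 called lower (11.8%, against 15.7% of all genes; median -0.26). They were Atp5h, subunit d of the stator stalk (-0.53, SE 0.11, adjusted p = 0.00616, no overlap), and Atp5d, subunit delta of the rotor (-0.38, adjusted p = 0.0447). Atp5d lost its call whichever normal was left out (adjusted p of 0.0969, 0.217 and 0.0616 for normals 1 to 3), and also without several single tumors. The catalytic subunits Atp5a1 (-0.14, adjusted p = 0.433) and Atp5b (-0.04, adjusted p = 0.867) did not pass. Of the 3 genes for the same c-ring protein, Atp5g1 (-0.27) and Atp5g3 (-0.30) were below zero and Atp5g2 at 0.41 (adjusted p = 0.181; 0.89 and adjusted p = 0.0189 in the TPM table). Atp5g2 had 3529 counts in all and its near-identical entry Gm10175 had 37018, so its own level is uncertain.

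Of the members with tissue-restricted or alternative forms, Cox7a1 was called lower over all tumors. Cox4i2, Ndufa4l2 and Cox6b2, all at low counts, were not called over all tumors in the TMM fit. Cox7a1, the heart and muscle form of subunit VIIa (chromosome 7, 30184144 to 30186078), had 23.9, 21.3 and 8.64 CPM in normals. Antrum tumors had 0.615, 2.91 and 0.881, greater curvature tumors 1.05, 8.20 and 0.786, lesser curvature tumors 0.295, 2.24 and 0.478, and corpus tumors 19.2, 7.68 and 7.35. All but corpus 1 lay below the normals, and the fold change of -2.73 (SE 0.67, adjusted p = 0.0115) was the largest of the members. It was called lower with library totals (-2.36, adjusted p = 0.0126) and in the TPM table (adjusted p = 0.0143), and narrowly lost without normal 1 (adjusted p = 0.0510). Of the TPM of Cox7a1 and Cox7a2 together, Cox7a1 made up 25.1%, 19.1% and 12.7% in normals and 0.512% to 22.3% in tumors. Smooth muscle markers fell beside it (4633 to 6519 against 194 to 1194 CPM). Corpus 1, with the highest tumor level of Cox7a1, held 433 CPM of smooth muscle and 8323 CPM of parietal markers. Of the striated muscle markers, 1 of 5 tested was called lower, with sums of 18.2 to 21.9 CPM in normals and 2.49 to 14.8 in tumors. The part of these cells in the result was not tested.

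Cox4i2, the subunit IV form known from lung and from low oxygen (chromosome 2, 152754173 to 152765037), had 0.367, 0.262 and 0.688 CPM in normals, from 3 to 9 counts, and 0.291 to 4.92 in tumors (median 1.09), with 9 of 12 tumors above all normals. Its fold change of 1.47 (SE 0.64) did not pass over all tumors (adjusted p = 0.0921; 1.19 and adjusted p = 0.0247 in the TPM table), and it made up at most 1.73% of the TPM of Cox4i1 and Cox4i2. In lesser curvature tumors (1.23, 1.45 and 4.92 CPM) it was called higher at 2.51 (SE 0.75, adjusted p = 0.0262), a call that was not made without normal 1, normal 2 or lesser curvature 3. Ndufa4l2, the Ndufa4 relative known as a target of hypoxia-inducible factor, had 1.15 to 4.36 CPM in normals and 11.9, 8.62 and 9.79 in lesser curvature tumors, all above the normals, but 0.237 to 2.70 in corpus tumors and 10.4, 1.75 and 2.04 in antrum tumors. Over all tumors it was at 0.48 (SE 0.65, adjusted p = 0.575) and in lesser curvature tumors at 1.90 (adjusted p = 0.0878). Cox6b2, the testis form of subunit VIb, was at 0.69 (adjusted p = 0.142; 0.90 and adjusted p = 0.0258 in the TPM table) with at most 2.51 CPM. Pericytes are known to express Cox4i2 and Ndufa4l2: of 6 pericyte markers 1 was called higher and 2 lower, with sums of 252 to 492 CPM in normals and 117 to 432 in tumors, and their part was not tested.

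**Figure D5:**
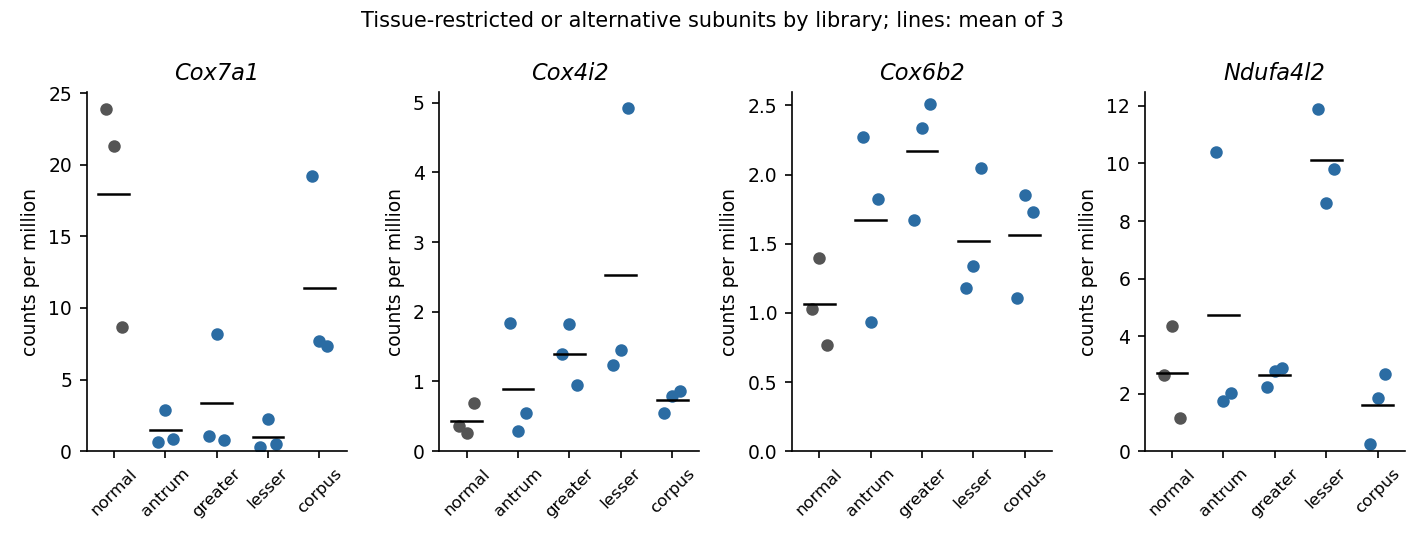
CPM of 4 tissue-restricted or alternative subunits in each library (points) with the mean of 3 (lines). Cox7a1 lies below the normals in every tumor but corpus 1 (19.2), the highest single values of Cox4i2 (4.92) and Ndufa4l2 (11.9) are in lesser curvature tumors, and Cox6b2 stays at or below 2.51 in every library.

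Each tumor place was next set against the same 3 normals, which the 4 comparisons share. In antrum tumors 14 nuclear members were called lower, against 5.08% of all genes, and 3 mitochondrial ones; in greater curvature tumors 8, against 2.76%, and 3. None was called higher in either place by edgeR or DESeq2, against 9.59% and 6.5% of all genes by edgeR, and 0 and 2 members had a higher value at an unadjusted p under 0.05. In lesser curvature tumors 42 nuclear members were called lower, against 15.3%, and 7 mitochondrial ones, while 1, Cox4i2, was called higher, against 18.2%. In corpus tumors no member was called by edgeR, against 1.19% of genes lower and 2.35% higher, and 7 nuclear and 6 mitochondrial members had an unadjusted p under 0.05, against 24% of all genes. DESeq2 called 3 nuclear and 6 mitochondrial members lower there, against 5.67% of all genes. The nuclear medians were -0.34 in the antrum, -0.33 in the greater curvature, -0.52 in the lesser curvature and -0.16 in the corpus. The mitochondrial medians in that order were -0.78, -0.79, -1.10 and -0.70. With the replicate number as a block, 8 mitochondrial members were called lower in the antrum, 8 in the greater curvature and 11 in the lesser curvature. No member was called in the corpus. Same-numbered samples varied together with the normals in the antrum and lesser curvature but not in every pair of the greater curvature, so the added calls did not follow the pairing. Over all tumors the fit with the block called 17.6% of all genes lower, and the shares for single places are not given. Without the block, mt-Nd4, mt-Nd5 and mt-Cytb were called in the first 3 places, as were Ndufa6, Ndufa1, Ndufv3, Ndufb9, Sdha, Sdhd and Atp5h.

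Differences among the places were not called for any member. The F test over the 4 tumor groups in edgeR had no adjusted p under 0.05 among the 16224 genes (0%), with 0.746 the smallest of the members, and DESeq2 called no member. At an unadjusted p under 0.05 there were 13 of 94 members (13.8%), against 5.84% of all genes. DESeq2 gave 14 and limma on TPM 3 members at that level. The members with the smallest p were Ndufa6, Cox6b1, Ndufa3, Cox7a1 and Cox6a1. Ndufa6 had 104, 88.2 and 81.2 CPM in corpus tumors and 53.0, 59.1 and 56.1 in lesser curvature tumors, without overlap, and Ndufa3 had 64.7, 54.0 and 45.1 and 24.8, 35.8 and 28.9. Parietal markers summed to 8323, 2089 and 3052 CPM in corpus tumors and to 90.3, 1186 and 285 CPM in lesser curvature tumors, and the part of parietal cells was not tested. Without corpus 1 and greater curvature 2, whose chief and parietal marker sums came nearest to the normals, 17 nuclear members were called lower in greater curvature tumors and 2 in corpus tumors. The share of all genes called in that fit is not given, so these counts cannot be set against it. The call counts of single places rested on single libraries: between 1 and 17 nuclear members in the antrum, 0 and 15 in the greater curvature, and 18 and 46 in the lesser curvature as each library was left out.

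Lists of other mitochondrial genes were read in the same fit, where 16.2% of all genes were called higher and 15.7% lower. Of 13 genes that copy and transcribe mitochondrial DNA, 4 were called higher and 1 lower, with a median of 0.58 (0.62 relative to the median gene, and 0.64 and 0.59 with library totals and the TPM table). Twnk, the helicase of mitochondrial DNA replication, had 27.3, 16.1 and 20.6 CPM in normals and 27.0 to 94.1 in tumors, at 1.56 (SE 0.38, adjusted p = 0.0115), though it missed the threshold once normal 2 (adjusted p = 0.0575) or normal 3 (adjusted p = 0.0511) was left out. The nuclease Mgme1 (0.92, adjusted p = 0.0170) and the polymerase Polg (0.41, adjusted p = 0.0225) also rose, and each lost the call without normal 1 or normal 3 (largest adjusted p of 0.0760 and 0.106), while the transcription factor Tfam (0.58, adjusted p = 0.0542) and the RNA polymerase Polrmt (0.37, adjusted p = 0.0821) did not pass. Of 15 genes that process and stabilize mitochondrial RNA, 9 were called higher and 1 lower, with a median of 0.48. Of those higher, Trmt10c, Elac2, Fastkd3, Fastkd5, Pnpt1, Supv3l1 and Mtpap lost the call when a single normal was left out. The largest adjusted p among these was 0.126, for Elac2 without normal 2. Lrpprc, which protects mitochondrial mRNAs and their tails, had 61.9, 60.4 and 62.5 CPM in normals and 69.6 to 142 in tumors, all above the normals, at 0.89 (SE 0.20, adjusted p = 0.00870). Fastkd2, an RNA-binding protein of mitochondrial ribosome assembly, rose by 0.63 (adjusted p = 0.00611). Hsd17b10, a subunit of the enzyme that cuts transcripts at the 5′ end of tRNAs, was called lower at -1.09 (SE 0.19, adjusted p = 0.00347), and in the TPM table as well (-0.51, adjusted p = 0.0311). Lrpprc, Fastkd2, Twnk, Mgme1 and Polg were called higher with TMM, library totals and the TPM table alike. Library totals and the TPM table shift values up and called 31.3% and 37.3% of all genes higher, so their calls are no separate support.

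Of the citric acid cycle genes, whose products feed the chain, 6 of 13 were called lower and none higher by edgeR or DESeq2, with a median of -0.33, which became 0.24 in the unscaled TPM table with 4 called higher, where 37.3% of all genes were. Ogdh of the oxoglutarate dehydrogenase complex (-1.21, adjusted p = 0.0218) and citrate synthase Cs (-0.71, adjusted p = 0.0150) were among those called, and both lost the call without normal 2 (adjusted p of 0.0881 and 0.0942). Ogdh lost it without normal 3 as well (adjusted p = 0.0827). Of 48 assembly factors tested 7 were called higher and 6 lower (median 0.06), counts near the shares of all genes (16.2% and 15.7%). Among those lower were the copper chaperone Cox17 (-0.66, adjusted p = 0.00919) and Cox20 (-0.81, adjusted p = 0.0164). Cox17 lost the call without normal 3 (adjusted p = 0.0685), and Cox20 whichever normal was left out (adjusted p of 0.0546, 0.0679 and 0.0501 for normals 1 to 3). Cytochrome c, Cycs, did not pass (-0.02, SE 0.14, adjusted p = 0.930; 0.54 and adjusted p = 0.0128 in the TPM table). Of 9 regulators of mitochondrial biogenesis 3 rose and 2 fell. Pprc1, a coactivator related to PGC-1, had 36.8 to 47.5 CPM in normals and 65.7 to 162 in tumors (1.30, SE 0.21, adjusted p = 0.00262), and Nrf1 had 23.5 to 25.6 and 26.6 to 43.5 CPM (0.56, adjusted p = 0.0164), with all tumors above the normals in both. Nrf1 missed the threshold once normal 3 (adjusted p = 0.0686) or normal 1 (adjusted p = 0.0612) was left out. The nuclear receptor Esrrg, which is also on the parietal list, fell by 1.36 (adjusted p = 0.00789), as did Esrra by 0.76 (adjusted p = 0.0471, and up to 0.144 with 1 normal left out), and the coactivator Ppargc1a was at -0.81 (adjusted p = 0.139). Esrrg missed the threshold once normal 1 was left out (adjusted p = 0.0853).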

How the data were processed

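RNA of 15 samples was sequenced, and values are per gene symbol. The deposited count table holds estimated counts as whole numbers, and the submitters' processing notes name bcl2fastq 2.19, kallisto 0.44.0, sleuth, DESeq2 and GRCm38.p6 without saying which step made which table. The second deposited table is named FPKM, but each column sums to 1000000, so its values were read as TPM. kallisto splits reads among near-identical transcripts, so copies and overlapping genes can trade counts.

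Counts of 16224 genes (filterByExpr, minimum count 10) were fitted with edgeR 4.0.16 (R 4.3.3; robust quasi-likelihood, TMM) over all 5 groups, with contrasts for the mean of the 4 tumor groups, for each place and, as an F test, among places. P-values were Benjamini-Hochberg adjusted over all genes tested, with 0.05 as the threshold. TPM values were tested with limma 3.58.1 on log2(TPM + 1), which understates changes of low genes, after requiring 1 TPM in 3 libraries. DESeq2 1.42.0 was an alternative. Ratios and per-library sums have no test. Deviations of same-numbered samples from their group means correlated at over 0.1 in all 3 pairs for normals with antrum tumors (0.179 to 0.462) and with lesser curvature tumors (0.143 to 0.367), but not with greater curvature (lowest 0.0881) or corpus tumors (lowest -0.257); the labels give no meaning for the number. The code was tested on counts simulated with the means, library sizes and spread of these data. For tumors against normals edgeR called 74 of 92 genes given an absolute log2 change of 3, and 9 of 99 given a change of 1. A gene that did not pass may therefore still differ.

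Members and lists were chosen with earlier results of these data known. The named genes were all mitochondrial members, the tissue-restricted subunits with their common forms, the c-ring genes, up to 4 nuclear members per complex and direction and 5 among places by p, and up to 3 genes per other list by p. Ndufv1, Cox5b, Atp5a1, Atp5b, Tfam, Polrmt, Esrra and Ppargc1a were added after their values were seen, as were the copies, library totals and TMM-scaled TPM alternatives.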

Additional observations from a re-analysis of the deposited data

How the results depend on the processing

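Counts of calls depended on scaling and on single libraries, and the limit throughout is 3 normals whose mitochondrial sums differ among themselves. The cause of the changes below was not tested. For single places in most of these fits, and with libraries left out, the share of all genes called is not given, so those counts cannot be read against it. In all tumors, nuclear members lower numbered 1 with TPM, 5 with library totals and 20 with TMM-scaled TPM, against 3.58%, 6.95% and 11.6% of all genes. Nuclear members higher numbered 7 with TPM and 3 with library totals, against 37.3% and 31.3% of all genes, and 1 without greater curvature 2 and corpus 1. Mitochondrial members lower numbered 1 with TPM and 4 with library totals. In antrum tumors, nuclear members lower numbered 24 with DESeq2, 5 without a filter, 1 with TPM, 3 with the compared groups alone, 2 with library totals and 9 with TMM-scaled TPM. Mitochondrial ones numbered 6 with DESeq2, 5 without greater curvature 2 and corpus 1, and 0 with TPM, the compared groups alone and library totals. In greater curvature tumors, nuclear members lower numbered 5 with DESeq2 size factors, 20 with DESeq2, 1 without a filter, 0 with TPM, 0 with the compared groups alone, 1 with library totals and 17 without greater curvature 2 and corpus 1, and higher 1 with TPM, library totals or those libraries left out. Mitochondrial ones numbered 8 with DESeq2 and 0 without a filter, with TPM, with the compared groups alone and with library totals. In lesser curvature tumors, nuclear members lower numbered 4 with TPM and 5 with library totals, and higher 2 with DESeq2, 8 with TPM, 2 with the compared groups alone, 3 with library totals and 2 with TMM-scaled TPM. Mitochondrial ones numbered 0 with TPM and 1 with library totals. In corpus tumors, lower nuclear and mitochondrial members numbered 3 and 6 with DESeq2 and 2 and 1 without the 2 libraries.

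With the replicate number as a block, nuclear and mitochondrial members lower numbered 40 and 11 over all tumors (against 17.6% of all genes), 17 and 8 in the antrum, 13 and 8 in the greater curvature and 48 and 11 in the lesser curvature. Over all groups the pairing was incomplete: of 30 same-numbered pairs 17 had a correlation of deviations over 0.1 (-0.566 to 0.693), and 10 of 15 libraries correlated best with their own number.

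Leaving out 1 library at a time gave 14 to 40 nuclear and 1 to 10 mitochondrial members lower over all tumors, 1 to 17 and 0 to 5 in the antrum, 0 to 15 and 0 to 4 (higher 0 to 1) in the greater curvature, 18 to 46 and 1 to 9 (higher 0 to 2) in the lesser curvature and 0 to 2 and 0 to 1 in the corpus. The log2 ratio of the genomes ranged from -0.73 to -0.32, and the medians relative to all genes from -0.39 to -0.24 (nuclear) and -0.98 to -0.65 (mitochondrial), always below zero. Signs reversed for Cycs with TPM (-0.02 in the TMM fit; 0.54 with TPM, adjusted p = 0.0128, or 0.07 after subtracting the 0.47 by which the median of all genes differs between these fits) and, without normal replicate 2, for the squamous markers Lor (0.37, adjusted p = 0.829), Krt4 (3.81, adjusted p = 0.0324) and Krtdap (4.36, adjusted p = 0.195), by edgeR; over the libraries left out their lowest values were -9.27, -7.57 and -9.69.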
